A study of Homo sapiens with 4 samples.

Results

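The genes that took up the most ribosome footprints in the library labelled MOLM13 are described here, with the transcripts and exons that carried those footprints and the lineage genes found among them. Named nuclear protein-coding genes were ranked by their share of aligned bases, which is transcript coverage times transcript length summed per gene, and by TPM, the usual abundance unit, which divides by transcript length. There were 18235 such genes among the 60651 genes of the deposited files, and 10446 of them were above 0 in this library. The series holds 1 library of ribosome-protected RNA fragments from each of 4 untreated human leukemia cell lines, which the labels name MOLM13, K562, THP_1 and HL60. Per the labels, MOLM13 cells grew in DMEM, K562 and HL60 cells in IMDM, and THP_1 cells in RPMI1640 with 2-mercaptoethanol, each with serum, so line and medium cannot be told apart. All lysates were made with cycloheximide, which arrests elongating ribosomes, and digested with the nuclease of a ribosome profiling kit. With no second library of any line, no difference between lines has a replicate check, and no p-value is given.

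A ribosome shields a short stretch of mRNA from nuclease, so sequencing these stretches counts ribosomes along each message. The share of footprints on a gene depends on how much of its mRNA is present, how often ribosomes start on it and how long its coding region is. Growing cells are known to spend much of their synthesis on ribosomal proteins, chaperones, glycolytic enzymes, actin, tubulin and, while they copy DNA, histones. MOLM13 is known as a line from an acute monocytic leukemia with a KMT2A rearrangement and an internal tandem duplication of FLT3, a receptor kinase of progenitor cells. K562 came from a chronic myeloid leukemia and has erythroid features, THP_1 came from an acute monocytic leukemia, and HL60 from a promyelocytic-like leukemia.

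The library labelled MOLM13 held 344 aligned megabases, against 473 in K562, 678 in THP_1 and 973 in HL60, and was thus the shallowest of the 4. Named protein-coding genes held 83.3% of its aligned bases, against 75.8%, 84.7% and 87.3% in K562, THP_1 and HL60. Division by 29 bases, the modal fragment size seen on single-exon transcripts, gave 9891716 footprint equivalents on these genes. Shares below are percentages of the aligned bases on named protein-coding genes, and their 95% binomial intervals cover counting error only. The deposited file of this library carries another name than its label, and several defining genes of the labelled line were listed at 0, so the sample is called by its label throughout.

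Footprints were spread over more genes in the library labelled MOLM13 than in the other lines. It took 926 genes to reach 50% of its aligned bases, against 821 in K562, 686 in THP_1 and 565 in HL60. The 100 top genes held 15.5% in the library labelled MOLM13, against 16.9%, 20.5% and 23.9% in K562, THP_1 and HL60. Its highest-ranked gene held 0.409%, whereas the highest-ranked genes of K562, THP_1 and HL60 held 0.793%, 1.57% and 2.20%. By TPM, 443 genes reached 50%, against 392, 341 and 283 in the same 3 lines, so the order of the 4 libraries was the same by both measures. Over the 9312 genes whose exons overlap no other gene, 478 genes reached 50%, against 432, 318 and 259, in the same order. With genes of every type in the ranking the order of the others changed, and 685 genes reached 50%, against 469, 534 and 482. The 100 top genes then held 25.3%, against 32.2% in K562, 27.9% in THP_1 and 28.6% in HL60. Among protein-coding genes, the 4 libraries stand in the same order from shallowest to deepest as from least to most concentrated, and the part of depth in these values was not tested.

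The first places went to an RNA-binding protein, a glycolytic enzyme, chaperones and actin. HNRNPA2B1, which binds and packages nascent mRNA, held 0.409% (95% interval 0.405% to 0.413%), against 0.376% in K562, 0.425% in THP_1 and 0.381% in HL60. ENO1, the glycolytic enolase, held 0.402% (0.398% to 0.406%), against 0.476%, 0.485% and 1.02% in K562, THP_1 and HL60. HSPA8, the constitutive HSP70 chaperone, held 0.384%, against 0.488%, 0.454% and 0.462% in those lines. The intervals of HNRNPA2B1 and ENO1 overlap, so their order was not resolved by counting error, while HSPA8 lay below both. HSP90AB1, the constitutive cytosolic HSP90, followed with 0.371%, against 0.632% in K562, 0.335% in THP_1 and 0.248% in HL60. The actins ACTB and ACTG1 held 0.338% and 0.323%. ACTB held 0.325% in K562, 0.917% in THP_1 and 0.888% in HL60, so that THP_1 and HL60 lay well above the library labelled MOLM13 and K562 beside it.

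Places 6 to 20 added nucleolar, translational and replicative genes. NCL, a nucleolar protein of ribosome assembly, held 0.330%, the ribosomal protein gene RPL30 held 0.296%, and CALR, a calcium-binding chaperone of the endoplasmic reticulum, held 0.262%. PKM (pyruvate kinase), EEF2 (the elongation factor that moves the ribosome along) and TOP2A (topoisomerase II, needed to separate copied chromosomes) held 0.258%, 0.258% and 0.257%. PRDX1, a peroxide-reducing enzyme, held 0.251%, the histone gene H3C2 0.248%, and CLTC, the clathrin heavy chain, 0.246%. HNRNPU, another nuclear RNA-binding protein, held 0.235%. RPL30 stood above the other lines, which had 0.139% in K562, 0.179% in THP_1 and 0.0654% in HL60. TOP2A did too, with 0.203%, 0.114% and 0.114%. The stretch between 0.246% and 0.262% is narrow, and neighbouring genes within it had overlapping intervals.

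ALDH1A1, an aldehyde dehydrogenase that makes retinoic acid and marks some progenitor cells, ranked 17 with 0.224%. It held 0.225% in K562, but 0.0247% in THP_1 and 0.0144% in HL60. The library labelled MOLM13 and K562 were thus alike for this gene, and it was no call of the size rule given below. HSP90AA1 (the inducible cytosolic HSP90), LDHB (a lactate dehydrogenase subunit), RPS3 (a small-subunit ribosomal protein), PRKDC (the catalytic subunit of a DNA repair kinase) and GAPDH (a glycolytic enzyme) held 0.212%, 0.207%, 0.204%, 0.204% and 0.199%. B2M, the light chain of MHC class I, held 0.195%, against 0.0587% in K562, 0.260% in THP_1 and 0.388% in HL60. CFL1 (cofilin, which severs actin filaments), RACK1 (a scaffold on the small ribosomal subunit), the histone gene H4C3, XRCC5 (a DNA end-binding protein), HSP90B1 (the HSP90 of the endoplasmic reticulum), ATP5F1A (an ATP synthase subunit) and TUBB (a beta tubulin) filled places 24 to 30, with shares of 0.184% to 0.158%.

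**Figure D1:**
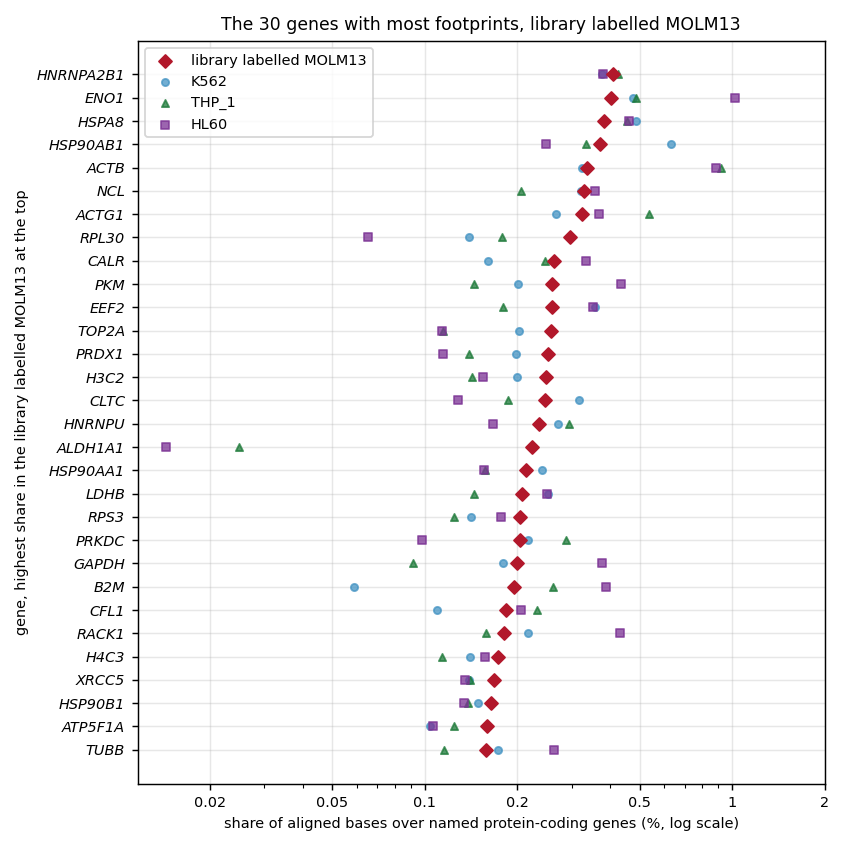
Share of aligned bases (percent, log scale) of the 30 highest-ranked genes of the library labelled MOLM13, with 1 point per library. The red diamonds run from 0.409% for HNRNPA2B1 to 0.158% for TUBB, and the widest gap between lines is at ALDH1A1, where THP_1 and HL60 lie at 0.0247% and 0.0144%.

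The top list was most like that of K562. Of the 100 top genes, 75 were also among the 100 top genes of K562, against 53 for THP_1 and 55 for HL60. Among the 500 top genes the numbers were 387, 325 and 334. The library shared 21 of its 30 top genes with K562, 12 with THP_1 and 15 with HL60. K562 was also the nearest library in depth, with 473 aligned megabases against 344, and the part of depth in this overlap was not tested.

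Division by length moved short messages up. By TPM the first gene was RPL30 with 5085, followed by the histone genes H3C2 with 4833, H4C3 with 4248, H2BC5 with 3106 and H4C8 with 2949. HSPA8 with 2635, PRDX1 with 2607, RPS3 with 2498, TMSB10 (a small actin-monomer binding protein) with 2387 and ACTB with 2306 came next. H4C2 with 2301, CALR with 2203, ENO1 with 2120 and the linker histone gene H1-2 with 2001 were also among the highest. The 2 rankings shared 50 of their 100 top genes and 24 of their 50 top genes. Histone genes have many near-identical copies, and how the authors' counting split reads among them is uncertain.

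Among the 500 top genes by share, those that gained most places by TPM were short and those that lost most were long, as the arithmetic of TPM requires. H2BC12 went to place 91 by TPM, against place 500 by share, with a main transcript of 495 nucleotides. SLIRP, a small mitochondrial RNA-binding protein, stood at 52 by TPM and 418 by share, and COX8A, a small subunit of the last respiratory complex, at 84 and 434. The other large gains were those of ATP5MPL, H2BC4, H4C13, H4C1, EIF4A1, NACA and NDUFA1. MDN1, a giant ATPase of ribosome assembly, stood at 3976 by TPM and 488 by share, with a main transcript of 18485 nucleotides. DYNC1H1, the heavy chain of the dynein motor, stood at 2414 and 150 with 20066 nucleotides. BIRC6, RIF1, UBR4, HUWE1, NDUFS1, MKI67 and USP9X were further large losses.

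**Figure D2:**
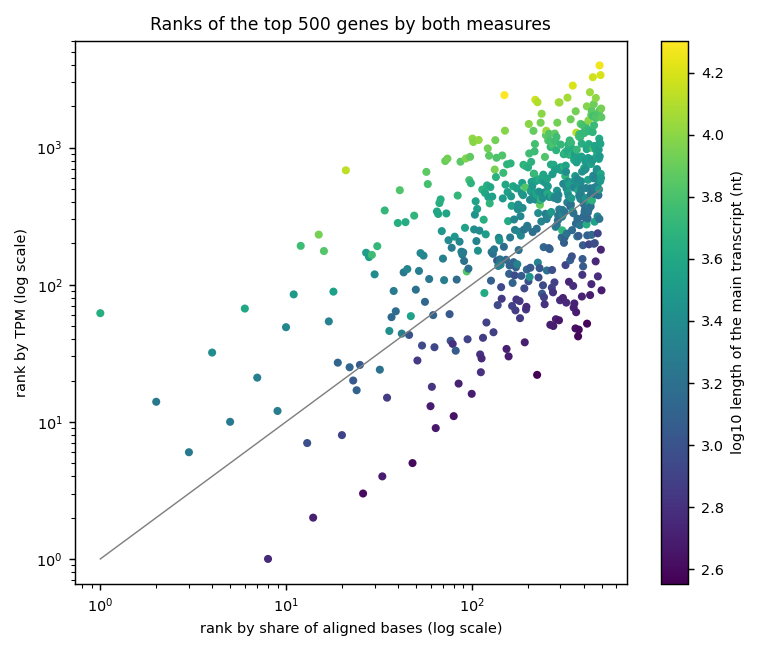
Rank by TPM against rank by share of aligned bases (both log scales) for the 500 top genes of the library labelled MOLM13, coloured by the log10 length of the main transcript in nucleotides, with a grey line of equal ranks. Short messages lie below the line, such as RPL30 at 1 by TPM and 8 by share, and long ones above it, such as DYNC1H1 at 2414 and 150.

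Grouped by function, 20 lists of 837 genes held 36.9% of aligned bases and 48.98% of the TPM of named protein-coding genes, and 85 of the 100 top genes were on them. RNA splicing and hnRNP proteins held 4.03% (95% interval 4.02% to 4.04%), against 4.35% in K562, 3.87% in THP_1 and 3.89% in HL60. All 66 matched members were above TPM 1, and 44 stood among the 500 top genes. After HNRNPA2B1 and HNRNPU, a leading member was DDX5, an RNA helicase, with 0.156%.

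Cytosolic ribosomal proteins held 3.72% (3.71% to 3.73%), against 4.01% in K562, 3.25% in THP_1 and 4.28% in HL60. By TPM their share was 8.76%, since their messages are short. Of 79 members, 73 were above TPM 1, 37 stood among the 500 top genes and 13 among the 100 top genes. Their median scaled TPM was 324 in the library labelled MOLM13, against 334 in K562, 355 in THP_1 and 481 in HL60, where scaled TPM is TPM divided by 1 factor per library. Over all 9946 named genes with at least 600 aligned bases the medians were 11.8, 9.41, 10.1 and 8.33. Most proteins of the ribosome are present in equal numbers, yet scaled TPM ran from 4488 for RPL30 and 2205 for RPS3 down to 0. RPL7, RPL26, RPL39, RPS3A and RPS27 were listed at 0 although every growing cell uses them, so a 0 in these files can be a failed estimate. Ribosomal protein genes have many processed pseudogenes: 1227 of the files' pseudogenes are named after them and held 10298 footprint equivalents, against 367706 on the genes themselves.

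Translation factors took less than ribosomal proteins. The 9 elongation factor genes held 0.367%, against 0.502% in K562, 0.279% in THP_1 and 0.451% in HL60, and EEF2 alone made up most of it. EEF1A1, which delivers tRNAs to the ribosome, held 0.0238% at rank 936, with 94.9% of the bases of its main transcript on 1 exon of 180 nucleotides. The files name 39 pseudogenes after EEF1A1, which held 2502 footprint equivalents, against 2355 on the gene, so its level is uncertain. EEF1G, another subunit of that complex, had 9.87 footprint equivalents. Initiation and termination factors held 1.41%, led by EIF3E and EIF4G2, and aminoacyl-tRNA synthetases, which charge tRNAs, held 0.768%, led by EPRS1 with 0.0925%.

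Many of these messages are known to begin with a C followed by a run of pyrimidines, the terminal oligopyrimidine (TOP) tract through which mTOR signalling sets their translation. The first bases of a transcript were searched for it on the gene's own strand, as a C followed by at least 4 further C or T letters that starts within 5 bases of the RefSeq start (build GRCh38.p14). Of 63 ribosomal protein genes with a RefSeq window, 51 held it (81.0%), against 21.1% of all 27305 RefSeq starts. Among the 100 top genes it was 32 of 82 (39.0%), and 23 of 72 (31.9%) without the ribosomal proteins. For genes with at least 600 aligned bases it was 22.8%. A match is a description of the letters and shows no regulation here. Windows of 30 bases, from 10 before the RefSeq start, are printed for 6 top genes of the translation machinery to show how the tract sits at the start. They were picked after the ranks were seen, and capitals mark the tract.
EEF2 (chr19:3985444-3985473, minus strand): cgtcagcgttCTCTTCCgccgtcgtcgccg
RPS3 (chr11:75399508-75399537, plus strand): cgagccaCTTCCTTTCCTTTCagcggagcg
RACK1 (chr5:181243887-181243916, minus strand): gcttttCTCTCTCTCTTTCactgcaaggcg
RPS24 (chr10:78033853-78033882, plus strand): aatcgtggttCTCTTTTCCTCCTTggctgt
RPS6 (chr9:19380217-19380246, minus strand): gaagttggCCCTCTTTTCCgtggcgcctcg
RPS19 (chr19:41860245-41860274, plus strand): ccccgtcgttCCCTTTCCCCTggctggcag
Counted from the first C within the searched bases, the tracts of RPS3 and RPS24 are 14 letters long. That of RACK1 is 13, those of RPS6 and RPS19 11, and that of EEF2 7. For RACK1 the run of C and T letters goes on before the capitals and opens with a C outside the searched bases, so its length is a minimum.

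Cytoskeleton genes held 2.80%, against 2.57% in K562, 6.12% in THP_1 and 4.35% in HL60, so the library labelled MOLM13 and K562 lay below the other lines. Chaperones held 2.54%, against 3.41%, 2.36% and 2.45%, and 8 of 34 stood among the 100 top genes, including CCT2 and CCT7, subunits of the ring that folds actin and tubulin. Core histones held 2.39%, against 1.88%, 2.43% and 2.39%, and their share of TPM was 7.996%. Core histone messages are made while DNA is copied and lack a poly(A) tail. DNA replication and nucleotide synthesis held 2.14%, against 2.15% in K562, 1.71% in THP_1 and 1.90% in HL60, and 17 of 56 members had a higher scaled TPM in the library labelled MOLM13 than in any other line. Such genes numbered 3564 of 9946 with at least 600 aligned bases.

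Respiratory chain and ATP synthase genes of the nucleus held 2.27%, against 2.18%, 2.58% and 2.65% in K562, THP_1 and HL60. ATP5F1C, the central stalk of ATP synthase, had a scaled TPM of 1129, against 489, 506 and 240. Glycolysis and pentose phosphate enzymes held 2.04%, against 2.101%, 1.72% and 3.64%, and 9 of 25 stood among the 100 top genes. TPI1 and PGAM1, enzymes of the same pathway, were listed at 0, and TPI1 had a scaled TPM of 164, 83.7 and 263 in the other lines. Chromatin and transcription genes held 2.26%, folding and secretion genes of the endoplasmic reticulum 1.72%, signalling and scaffold proteins 1.64%, and the proteasome and ubiquitin list 1.51%. Ribosome biogenesis held 1.21%, antioxidant enzymes 1.01%, mitochondrial carriers 0.973% and nuclear transport 0.883%. Enzymes of amino acid, lipid and one-carbon metabolism held 1.22%, led by ACLY and FASN, which make acetyl-CoA and fatty acids.

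**Figure D3:**
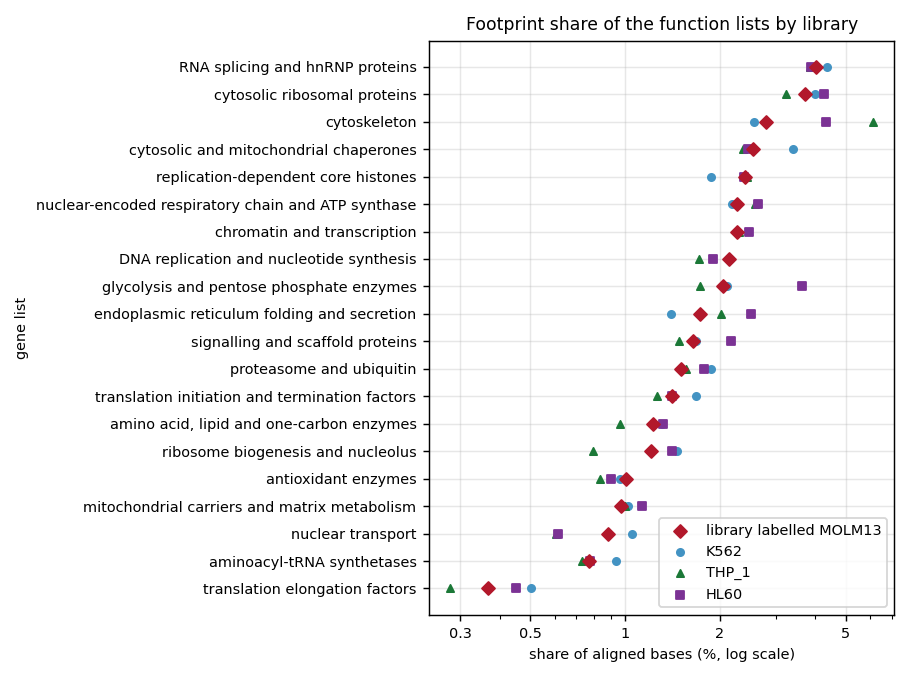
Share of aligned bases (percent, log scale) of the 20 function lists, with 1 point per library. For the library labelled MOLM13 the lists run from 4.03% for RNA splicing and hnRNP proteins to 0.367% for translation elongation factors, and cytoskeleton genes reach 6.12% in THP_1.

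The top genes often had their bases on several transcripts. Of the 50 top genes, 23 (46.0%) had 1 transcript with at least 90% of the bases, against 7200 of 9946 (72.4%) among genes with at least 600 aligned bases. The 50 top genes had a median of 13.5 annotated transcripts, against 8 for those 9946 genes. HSP90AB1, EEF2, TOP2A, ALDH1A1, PRKDC, B2M and XRCC5 each had 98.98% or more of their bases on 1 coding transcript, and TUBB had all of its bases on TUBB-205. Most of PKM (88.1%) lay on PKM-202 and most of RPL30 (90.9%) on RPL30-209. CLTC was split between CLTC-215 (59.4%) and CLTC-202 (39.8%), and CFL1 between coding transcripts with 71.0% and 26.8%.

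For some of the highest genes the main transcript was not a coding one. ENO1 had 84.4% on ENO1-210 and 14.5% on ENO1-203, and ACTG1 had 98.3% on ACTG1-215, all annotated as retained-intron transcripts. RPL37A, at place 45, had 99.01% on a retained-intron transcript of 2225 nucleotides. GAPDH had 51.9% on the coding GAPDH-205 and 43.0% on the retained-intron GAPDH-208, and CALR had 57.1% on a coding transcript and 36.5% on the retained-intron CALR-207. ACTB had 43.1% on ACTB-204 and RPS3 39.8% on RPS3-216, both annotated for nonsense-mediated decay, the pathway that destroys messages with a premature stop. HNRNPA2B1 had 59.2% on a transcript that is not in GENCODE 29. Over the 30 top genes, coding transcripts held 72.9% of bases and retained-intron transcripts 15.9%, against 81.5% and 8.34% over genes with at least 600 aligned bases. These transcripts share most exons with coding ones, and fragments of about 29 bases rarely span the exons that tell them apart, so the split is an estimate by the authors' assembler and not a count of isoforms.

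**Figure D4:**
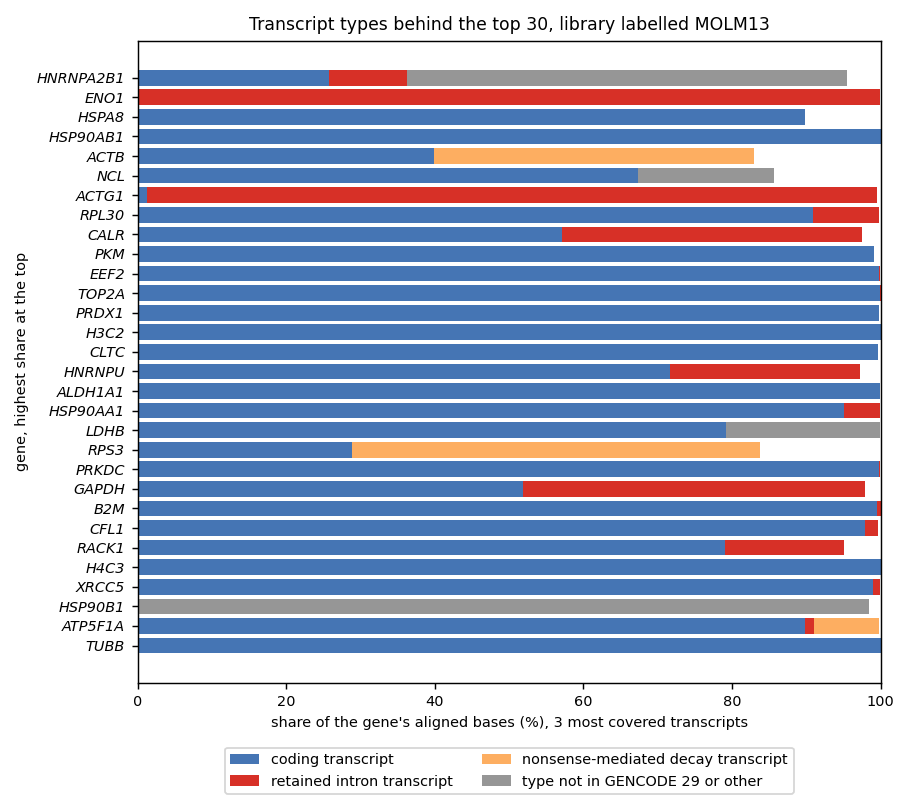
Share of each gene's aligned bases (percent) on transcripts of each annotated type, over its 3 most covered transcripts, for the 30 top genes of the library labelled MOLM13. ENO1 and ACTG1 are almost wholly on retained-intron transcripts, while HSP90AB1, EEF2, TOP2A and TUBB are on coding ones.

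PKM gives a case where isoforms differ in a defined exon. Its gene has a pair of mutually exclusive exons of 167 bases, and the M2 form of the enzyme, common in proliferating cells, uses the one nearer the 3′ end. This pair was chosen after the values were seen, and the 2 exons differ at 62 of 167 aligned positions. They are printed 5′ to 3′ on the minus strand (build GRCh38), since they are the part of the message in which the forms differ.
PKM exon nearer the 3′ end (chr15:72202454-72202620): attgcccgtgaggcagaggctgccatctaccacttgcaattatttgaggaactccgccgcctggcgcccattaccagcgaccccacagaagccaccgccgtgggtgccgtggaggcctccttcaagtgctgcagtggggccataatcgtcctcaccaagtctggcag
PKM exon nearer the 5′ end (chr15:72203022-72203188): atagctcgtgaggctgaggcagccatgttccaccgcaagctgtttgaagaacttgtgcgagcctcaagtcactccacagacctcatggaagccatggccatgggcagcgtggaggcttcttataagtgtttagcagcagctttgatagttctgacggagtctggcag
Summed over transcripts, the exon nearer the 3′ end had a mean coverage of 143 in the library labelled MOLM13, against 99.6 in K562, 151 in THP_1 and 850 in HL60. The exon nearer the 5′ end had 23.4, against 1.02, 0.407 and 136. The first exon thus held 85.9% of the pair's coverage in the library labelled MOLM13, against 98.99% in K562, 99.7% in THP_1 and 86.2% in HL60. The M2 exon was the main one in all 4 libraries, and the other exon was covered more in the library labelled MOLM13 and HL60.

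Within the main transcript, footprints lay unevenly over exons, a measure added after the values were seen. Among the 500 top genes whose main transcript has at least 3 exons, the exon with the highest coverage was in the first part of the exon order, before its midpoint, for 329 of 459 (71.7%), against 62.0% of 8963 genes with at least 600 aligned bases. PTMA, an acidic nuclear protein, had 97.8% on its first exon of 236 nucleotides. TPT1, a small protein of growing cells whose message also carries a tract at its RefSeq start, had 61.8% of its bases on an exon of 45 nucleotides, 4.46% of the transcript's length. It is printed (build GRCh38, minus strand) because it carries the start codon, in capitals.
TPT1 exon 1 (chr13:45341042-45341086): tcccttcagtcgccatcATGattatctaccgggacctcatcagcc
The same exon held 61.2% in K562, 57.1% in THP_1 and 48.8% in HL60, so the excess on it was common to the 4 libraries. B2M had 85.4% on its second exon of 279 coding bases, against 85.7%, 82.5% and 80.3%. RPS15A had 70.5% on its second exon, against 72.8%, 77.8% and 68.9%.

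Against the other lines, a gene was called high by a fixed size rule. The rule asked for a log2(scaled TPM + 1) that exceeded each of the other lines by 2 or more, about 4-fold, and for a minimum of 600 aligned bases in the library labelled MOLM13. Of 9946 genes, 226 were called high (2.27%). Among the 500 top genes 11 were called high (2.2%), at this setting about as often as all genes. The top genes were chosen for a high share in the same library that the rule asks to be high. Their share of high calls is therefore no independent comparison with all genes at any setting. The share over all genes moved with the setting more than that of the top genes. With a pseudocount of 5 the same 11 top genes were called, against 70 of 9946 genes (0.704%), and with 0.1 again the same 11, against 460 (4.62%). Without genes listed at 0 in any line, 7 of 493 top genes (1.42%) and 34 of 7967 genes (0.427%) were called. CD34, CRISP3, CTSW and ITM2A, each listed at 0 in another line, are the 4 of the 11 that are not tested there. A gene was called low when it lay as far below the lowest of the other lines, and 176 of 8112 genes were (2.17%). None of the 500 top genes was called low, but they were chosen for a high share in this same library. Their choice nearly excludes a low call, so this is no result about them.

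The 11 are CD96, CD34, CRISP3, IL32, CTSW, PCDH10, CYP1B1, CD3D, ITM2A, IFI16 and ITGAL. CD96, an adhesion receptor found on T and NK cells, had a scaled TPM of 512 in the library labelled MOLM13, against 0.655 in K562, 1.89 in THP_1 and 1.87 in HL60. CD34, a surface protein of blood stem and progenitor cells, had 192, against 0 in K562, 0.429 in THP_1 and 0.107 in HL60. The other lines were near or at 0 for both genes, and the ranks were 96 for CD96 and 186 for CD34. CRISP3, a secreted granule protein, had 373, against 0, 2.60 and 1.13, and IL32, a cytokine of T and NK cells, had 768, against 10.5, 6.01 and 2.36. CTSW, a protease of cytotoxic lymphocytes, had 346, against 0, 5.12 and 1.13. These 3 genes also stood far above the other lines. CD3D, a subunit of the T cell receptor complex, had 882, against 49.3 in K562, 3.89 in THP_1 and 3.36 in HL60.

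ITM2A, a membrane protein of T cell and muscle differentiation, had the highest rank of the 11, place 50, with a scaled TPM of 644, against 40.8 in K562, 5.31 in THP_1 and 0 in HL60. CYP1B1, a cytochrome P450 that oxidises steroids, had 214, against 1.64, 7.39 and 4.21. PCDH10, a cell adhesion protein, had 60.4, against 0.0552, 1.18 and 0.847. IFI16, an interferon-inducible DNA sensor, had 230, against 6.51, 22.6 and 16.5. ITGAL, the alpha chain of the leukocyte integrin LFA-1, had 104, against 0.694, 20.6 and 13.7, with 20.6 in THP_1 the nearest value.

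Below the call, CLNS1A, TGS1, FADS2, HNRNPR, GGH, PPP6R3, PFKP, SMC2 and ATP5F1C were the next highest above the other lines. CLNS1A, a factor in the assembly of spliceosomal particles, had a scaled TPM of 505, against 132 in K562, 37.4 in THP_1 and 99.2 in HL60. By share of aligned bases CLNS1A held 0.0435%, against 0.0330%, 0.0108% and 0.0299%, a narrower gap to the nearest line. HNRNPR held 0.0590%, against 0.0535% in K562, while PFKP kept a wide gap, with 0.0682% against 0.0280% in K562. At the other end, PSMA5, a proteasome subunit, had a scaled TPM of 88.6, against 179, 184 and 169, and MCM7, part of the replicative helicase, had 167.3, against 368, 301 and 358. SYNCRIP, RPL35A, ATP5F1B, TALDO1, HNRNPF and BSG were also among the lowest, and none of them met the rule for a low call. By share, RPL35A held 0.0736%, above the 0.0635% of THP_1, while the others named as lowest stayed below every line. The part of transcript length in these gaps was not tested.

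The second exon of CD34 is shown because CD34 was among the genes furthest from the other lines, and its bases lay on that exon to 40.7%, although the exon is 6.37% of the transcript. All 183 bases are coding (build GRCh38, minus strand).
CD34 exon 2 (chr1:207899821-207900003): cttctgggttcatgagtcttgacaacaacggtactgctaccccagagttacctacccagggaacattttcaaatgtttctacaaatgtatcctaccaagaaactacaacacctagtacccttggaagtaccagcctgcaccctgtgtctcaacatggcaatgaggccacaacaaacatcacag
The first exon of the main CD96 transcript, of 160 nucleotides and 10.2% of its length, held 65.2% of the bases. The values of CD34 and CD96 therefore rest in large part on 1 exon each, and the exons of CRISP3 were more even, with 16.97% on the most covered one.

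Lineage genes took a small part of the footprints. The 15 lineage lists, 283 genes, held 1.98%, against 2.37% in K562, 5.00% in THP_1 and 7.91% in HL60, and 133 genes were at or above TPM 1 here. In bulk cells, fewer cells of a type and less mRNA per cell cannot be told apart. Whether other cells were present was not tested. As background for the counts of genes listed at 0 below, 10446 of all 18235 named protein-coding genes were above 0 in this library.

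Part of the T and NK cell list stood above the other lines. Of 31 matched genes, 13 were at or above TPM 1 and 17 were listed at 0. The rule tested 13 genes of the list and called 10 of them high, against 2.27% of all genes tested. Of the 10 calls, 8 were of genes listed at 0 in at least 1 other line. Without genes listed at 0 in any line only 3 genes of the list are tested. Of these, 2 calls remain, CD96 and CD3D, against 0.427% of all genes tested. CD247, the zeta chain of the T cell receptor, had a scaled TPM of 39.0 (95% Poisson interval 36.0 to 42.3), GZMA, a granule protease, 20.96 (18.2 to 24.0), CD7 16.2 and CD3E 12.3. All 4 were listed at 0 in K562, THP_1 and HL60. GATA3, KLRB1, ZAP70 and PRF1 were at 8.98, 7.93, 5.96 and 4.33. The calls of CD3E, GATA3, KLRB1, ZAP70 and PRF1 end with a pseudocount of 5. The kinase LCK, CD2, CD3G, CD5, CD8A, CD28 and LAT, all common to mature T cells, were listed at 0, as were the constant regions TRAC and TRDC of the T cell receptor. The list held 0.190% of bases, against 0.0101% in K562, 0.0487% in THP_1 and 0.0781% in HL60, most of it on CD96 and CD3D.

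Stem and progenitor genes were present in part. Of 22 matched genes, 9 were listed at 0, 11 were at or above TPM 1 and 13 had the aligned bases to be tested. Of these 13, 5 were called high, namely CD34, ERG, ADGRG1, SPINK2 and HOPX, against 2.27% of all genes tested. All 5 were listed at 0 in at least 1 other line, so none of them can be called without such genes. In the other direction, 1 of the 22 was called low, against 2.17% of all genes tested for a low call. ERG, a transcription factor of stem cells, had a scaled TPM of 44.2 and was listed at 0 in the other 3 lines. ADGRG1, an adhesion receptor of stem cells, had 15.1, against 0 in the other 3. MYB, a transcription factor of progenitors, had 56.0, against 20.2 in K562, 95.9 in THP_1 and 73.7 in HL60. SPINK2 and HOPX, at 9.76 and 7.25, lose the call with a pseudocount of 5. The median scaled TPM of the 22 genes was 3.01, against 0.00664, 0.271 and 0 in K562, THP_1 and HL60.

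Several genes associated with the labelled line were listed at 0. FLT3 was listed at 0 in the library labelled MOLM13, against a scaled TPM of 0 in K562, 1.83 in THP_1 and 0 in HL60. MEIS1, a partner of HOXA9, was also listed at 0, against 1.82 in K562, 0.305 in THP_1 and 0 in HL60. HOXA9 and HOXA10, which a KMT2A rearrangement is known to keep active, had scaled TPM of 29.2 and 16.003, against 2.63 and 1.66 in K562, 15.8 and 18.8 in THP_1, and 3.04 and 2.48 in HL60. Neither was called high. Of 32 monocyte and macrophage genes, 17 were listed at 0, among them CD68, CSF1R, ITGAM and TYROBP. Of all 18235 named protein-coding genes, 10446 were above 0, so a 0 was common outside this list too. Among the 32 genes 1 was called low, against 2.17% of all genes tested for a low call. CD68 had 170 and 25.1 in THP_1 and HL60, and TYROBP 236 and 188. AIF1, a cytoskeletal protein of monocytes, had 395, against 9.27 in K562, 326 in THP_1 and 872 in HL60, and CYBA, a subunit of the oxidase that makes superoxide, had 183, against 331, 1065 and 350. LYZ, lysozyme, had 10.3, against 44.0, 2779 and 560. Because genes such as TPI1 and RPS27 are also listed at 0, a 0 for 1 gene does not show that it is silent. The median scaled TPM of the 32 monocyte genes was 0 in the library labelled MOLM13 and in K562, 19.1 in THP_1 and 10.4 in HL60. Over all 18235 named protein-coding genes the medians were 1.49, 0.809, 1.70 and 0.945. Whether the monocyte genes listed at 0 are silent was not tested.

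The 14 primary granule genes had a median scaled TPM of 10.97, against 0 in K562, 432 in THP_1 and 342 in HL60. MPO, the myeloperoxidase of these granules, had 13.3, against 0 in K562, 38.7 in THP_1 and 6338 in HL60. CTSG, AZU1, ELANE and PRTN3, granule proteases and relatives, had scaled TPM of 11.7, 2.47, 2.58 and 1.71, against 3561, 2072, 1509 and 1092 in THP_1. S100A8 was listed at 0 and S100A9, its partner in calprotectin, had 10.6. PRSS57, a primary granule protease, was called high, with a scaled TPM of 58.9, against 0, 1.66 and 0. It was the 1 high call among the 10 genes of the list tested, against 2.27% of all genes tested. Another of the 14 genes was called low, 1 in all, against 2.17% of all genes tested for a low call.

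Of 14 matched mast cell, basophil and eosinophil genes, 6 had the aligned bases to be tested. Of these 6, 3 were called high, against 2.27% of all genes tested. Without genes listed at 0 in any line, only HDC of the 3 is left to test, and it keeps the call. HDC, the enzyme that makes histamine, had a scaled TPM of 39.8, against 0.408 in K562, 0.0461 in THP_1 and 0.176 in HL60. FCER1A, a subunit of the IgE receptor, had 36.5, against 0, 0 and 0.579, and CPA3, a mast cell protease, had 28.3, against 0 in the other 3. The tryptase genes TPSAB1 and TPSB2 were among 7 of the 14 genes that were listed at 0. GATA2, a transcription factor shared by stem and mast cells, had 20.2, against 7.24, 0.955 and 0.990. The whole list held 0.0301% of aligned bases, against 0.00381% in K562, 0.000585% in THP_1 and 0.0323% in HL60. As a whole it was thus not above HL60, and its summed scaled TPM was 164, against 274 in HL60.

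Some genes were shared with K562. RHAG, a red cell membrane protein, had a scaled TPM of 451, against 467 in K562, 3.83 in THP_1 and 1.08 in HL60. TFRC, the transferrin receptor, had 264, against 363, 99.4 and 322, so HL60 was nearer than K562 and this gene was not particular to K562. Other erythroid genes differed: 16 of 26 were listed at 0, including KLF1 and ALAS2, and GATA1 had 6.08, against 97.5 in K562. Among these 26 genes 1 was called low, against 2.17% of all genes tested for a low call. Of 10 globin genes 9 were listed at 0, and HBE1, an embryonic globin, had 11.03, against 10647 in K562. The keratins KRT7, KRT18 and KRT8 had scaled TPM of 466, 218 and 124, against 391, 259 and 152 in K562 and at most 68.6 in THP_1 and HL60.

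Of 17 matched megakaryocyte and platelet genes, 9 were listed at 0, and the median scaled TPM was 0 in all 4 libraries. Of the 7 tested, 1 was called high, against 2.27% of all genes tested. That gene, ITGA2B, an integrin of platelets, had a scaled TPM of 81.6, against 19.4, 0 and 3.67, and the call ends with a pseudocount of 5 and without genes listed at 0 in any line. PLEK, a signalling protein of platelets and leukocytes, had 135, against 0, 139 and 133.

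Of 18 matched B cell genes 16 were listed at 0, and of 11 MHC class II genes 7 were. HLA-B, an MHC class I heavy chain, had a scaled TPM of 28.8, against 21.3 in K562, 458 in THP_1 and 813 in HL60. PTPRC, the leukocyte surface phosphatase CD45, had 147, against 3.83, 96.4 and 83.8. LCP1, an actin-bundling protein of leukocytes, had 192, against 115, 589 and 733, and ARHGDIB, a signalling regulator of blood cells, had 293, against 59.9, 1256 and 4608. The whole pan-leukocyte list of 21 matched genes held 0.467% of aligned bases, against 0.166% in K562, 0.833% in THP_1 and 1.66% in HL60.

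**Figure D5:**
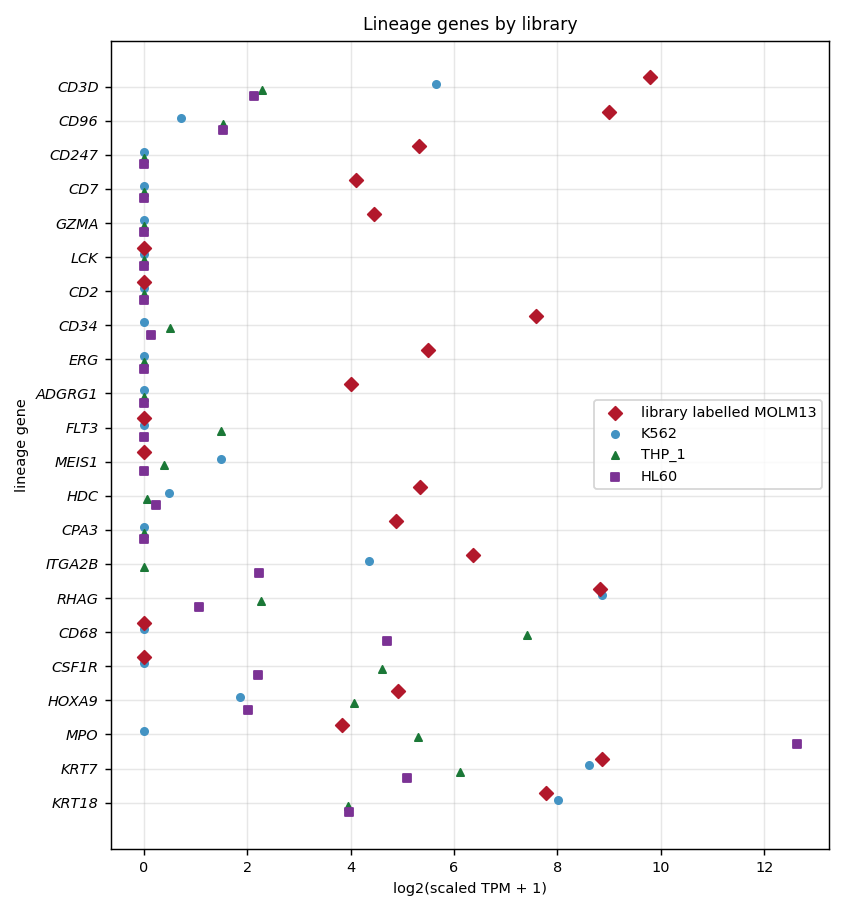
log2(scaled TPM + 1) of 22 lineage genes, with 1 point per library and points set slightly apart in height. The genes shown were chosen after their values were seen. For CD3D, CD96, CD34, ERG and HDC the point of the library labelled MOLM13 lies furthest right of the 4, RHAG and KRT7 lie beside K562, and FLT3, MEIS1, CD68, CSF1R, LCK and CD2 are listed at 0 there.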

How the data were processed

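Ribosome footprints were sequenced from 1 library of each of 4 cell lines. Per the submitters' processing notes, hg38 was the build, and the tools were STAR 2.7.8a, StringTie 2.1.5, Trim Galore 0.6.6 and Bowtie2 2.4.2. StringTie estimated only known transcripts, those of GENCODE 37, without a strand option, per the file headers, so overlapping genes on opposite strands cannot be told apart. The deposited values are per-base coverage, FPKM and TPM per transcript and coverage per exon, and FPKM was not used.

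Aligned bases were taken as coverage times length. Gene types came from GENCODE 29 of the same build and from RefSeq by symbol. Scaled TPM is TPM divided by a median-ratio factor over 3369 genes with TPM of at least 10 in all 4 libraries, which was 1.13 for the library labelled MOLM13 and 0.832, 1.01 and 1.05 for K562, THP_1 and HL60. The size rule used a pseudocount of 1, a log2 distance of 2 and a minimum of 600 aligned bases. It was tested on simulated data. Intervals assume 29-base fragments and cover counting error only.

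The members, gene lists and comparisons were chosen with earlier results of these data known. Named genes are the 30 top genes by share, the 15 top by TPM, the largest changes of rank within the 500 top genes, up to 4 members per list with defining members listed at 0, and the 10 furthest above and below the other lines. The search for pyrimidine tracts, the exon measures, the PKM pair, EEF1A1, EEF1G, PTMA and RPS15A, list members named beyond that rule and the genes of the lineage plot were chosen after values were seen. Exon shares were first tried on merged exons and then taken from the main transcript. Sequences came from RefSeq GRCh38.p14 and GENCODE 29 transcripts. Y-linked genes were left out. A few further genes under this rule are not given here. Work was done with Python 3.11.15, pandas 2.3.3, NumPy 2.4.6, SciPy 1.17.1, Matplotlib 3.10.9 and bedtools 2.31.1.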

Additional observations from a re-analysis of the deposited data

Results flagged for a closer look

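AC073140.1, a gene of 156 bases on chromosome 7 (148941483 to 148941638, GRCh38) that is not classed as protein-coding and lies outside the ranking, had a TPM of 54226 in the library labelled MOLM13, against 97248 in K562, 66638 in THP_1 and 27134 in HL60. It came up as a signal in data outside the protein-coding ranking, with 84170 footprint equivalents where a count of 0 allows 3, and it held 0.709% of all aligned bases of the library.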

How the results depend on the processing

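No paired analysis was possible because each line has 1 library. Exon coverage gave the same values as transcript coverage, but both come from the same StringTie estimates, so this is no separate check. With TPM, 443 genes held 50% of the signal, the 100 top genes held 25.68% and ribosomal proteins 8.758%. With all gene types in the ranking, the last 2 values were 25.3% and 3.098%. Over genes without exon overlap with another gene, 478 genes held 50%, the 100 top genes held 22.03% and ribosomal proteins 2.922%. The rankings by share and TPM shared 24 of the 50 and 310 of the 500 top genes. With a main transcript at 50% in place of 90%, 45 of the 50 top genes had one. Among the 500 top genes, 24 were called high at a log2 distance of 1, and 7 without genes listed at 0 in any line. Without scaling 13 were called, and the same 11 with pseudocounts of 0.1 and 5 and with aligned bases not divided by length. Of the 28 named high genes, 20 kept the call with a pseudocount of 5 and 8 lost it. Without genes listed at 0 in any line, 8 of the 28 could be tested and kept the call, and 20 could not be tested. All 28 kept it with a pseudocount of 0.1, without scaling and with aligned bases not divided by length. A log2 distance of 1 is a looser limit, under which no call can be lost. At 600 aligned bases a gene has 20.7 footprint equivalents, which limits the lineage genes with low levels most.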
